A study of Caenorhabditis elegans with 6 samples.

Results

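The genes *maoc-1*, *dhs-28*, *daf-22*, *ech-3* and *ech-8* act, or are placed by the study, in the steps of peroxisomal β-oxidation that follow acyl-CoA oxidase. They were found by gene name, and all 5 were present among the 28641 genes of the expression table. RNA was sequenced from whole *C. elegans* at the L4 larval stage, grown at 20 °C on *E. coli* OP50. The 3 WT libraries came from Bristol N2, the standard laboratory strain, and the 3 *alh-4(-)* libraries came from worms that carry the deletion *hj221* in that background. ALH-4 is a fatty aldehyde dehydrogenase, which turns fatty aldehydes into fatty acids. The comparison asks how transcript levels differ when this enzyme is missing throughout the animal, and 1 deletion allele represents its loss. Values are FPKM, fragment numbers scaled for exon length and for library size, so that levels of different genes can be compared per length.

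Peroxisomal β-oxidation shortens fatty acyl chains in rounds of reactions. Acyl-CoA oxidase introduces a double bond and gives off hydrogen peroxide, an enoyl-CoA hydratase adds water, a 3-hydroxyacyl-CoA dehydrogenase oxidizes the product, and a 3-ketoacyl-CoA thiolase releases acetyl-CoA. In *C. elegans* these later steps are known for MAOC-1, DHS-28 and DAF-22, respectively, which trim very long fatty acids and the side chains of ascarosides, the pheromones that control dauer entry. Worms that lack DAF-22 have enlarged intestinal lipid droplets. ECH-3 and ECH-8 are named after enoyl-CoA hydratase, and the study lists them with the peroxisomal oxidation genes. Mitochondria carry out the same reactions with separate enzymes, among them the thiolase KAT-1.

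*alh-4* itself had FPKM values of 352, 291 and 336.5 in WT against 33.7, 24.6 and 35.2 in *alh-4(-)* (log2 fold change -3.36, SE 0.22, limma adjusted p = 0.00301), in the direction of the labels. Between 17623 and 22670 genes had a value above 0 in a library. Replicate 1 of each genotype stood apart from the other libraries on the leading principal component, and these libraries had the fewest genes above 0 in their genotype (19102 in WT and 17623 in *alh-4(-)*). Marker genes of 7 tissues were all above 0 in every library. No marker passed either threshold used below. The summed FPKM of the 10 hypodermal markers was 2999 to 4649 in WT and 1552 to 3360 in *alh-4(-)*, with 8 of the 10 lower and log2 fold changes from 0.40 (*lin-26*) to -2.25 (*wrt-2*, adjusted p = 1 with limma). The 9 measured intestinal markers summed to 15150 to 23940 in WT and 13840 to 21720 in *alh-4(-)*, between 0.17 (*pept-1*) and -0.41 (*act-5*) on the log2 scale. The 6 pharyngeal markers summed to 1200 to 4640 and 1250 to 1989, with extremes at *tnt-4* (0.17) and *tnc-2* (-0.87). Median log2 fold changes were -0.72 for the hypodermal, -0.58 for the pharyngeal and -0.13 for the intestinal markers. The hypodermal median ran from -1.02 to -0.02 over the alternative fits. Other medians were 0.25 for the germ line (*mex-3* 0.71, *glh-1* -0.03) and -0.20 for sperm (*spe-11* 0.22, *msp-56* -0.35). They were 0.03 for body wall muscle (*hlh-1* 0.63, *tnt-2* -0.34) and -0.02 for neurons (*rab-3* 0.43, *sng-1* -0.33). The part of these tissue differences in the results below was not tested. In whole worms, fewer cells of a type and less RNA per cell cannot be told apart.

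*maoc-1*, *dhs-28* and *daf-22*, the genes of the complete reaction series after the oxidase, were among the more abundant transcripts of the L4 worm. Of the 16225 tested genes, those whose mean FPKM reached 1, *dhs-28* ranked 194 by mean FPKM, *maoc-1* ranked 354 and *daf-22* ranked 378. *ech-3* ranked 3953 and *ech-8* ranked 10897. All 5 had higher values in every *alh-4(-)* library than in any WT library, as the plot of FPKM by library shows.

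**Figure D1:**
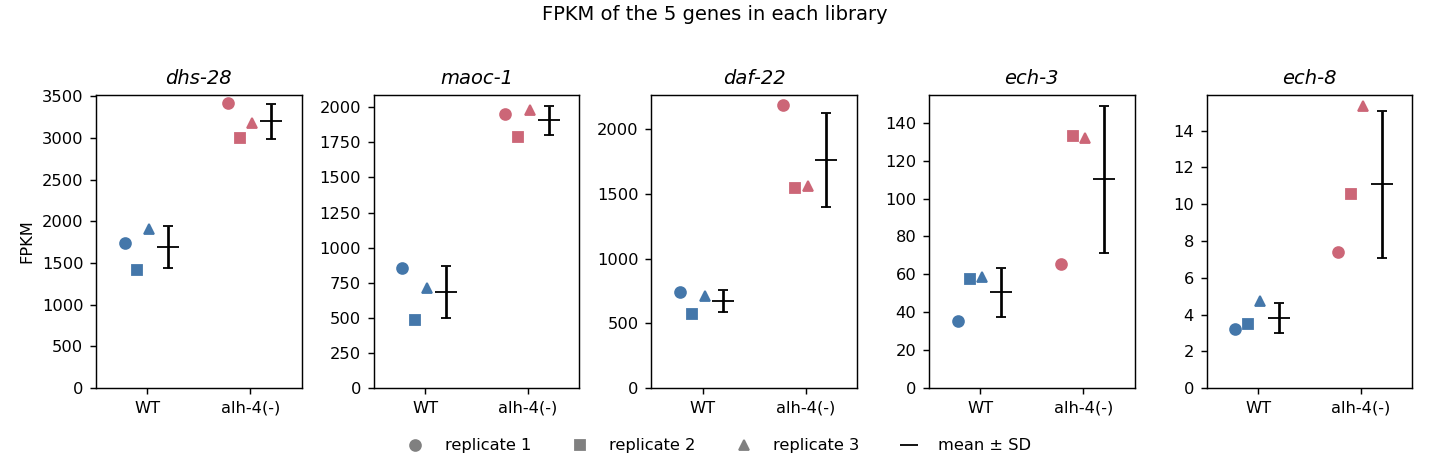
FPKM (vertical axes, each starting at 0) of *maoc-1*, *dhs-28*, *daf-22*, *ech-3* and *ech-8* in the 3 WT and 3 *alh-4(-)* libraries. Marker shapes give the replicate number, bars give the mean and SD, and in each panel every *alh-4(-)* point lies above every WT point, with the narrowest gap for *ech-3* (58.78 in WT against 65.53 in *alh-4(-)*).

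*maoc-1* encodes the enoyl-CoA hydratase of the pathway. Its FPKM was 853, 488 and 710 in WT replicates 1 to 3 (mean 684 ± 184, SD, n = 3) and 1952, 1789 and 1980 in *alh-4(-)* replicates 1 to 3 (mean 1907 ± 103, SD, n = 3). The WT libraries spread more widely than the mutant ones, with a coefficient of variation of 26.9% against 5.41%, and the lowest mutant library still exceeded the highest WT library 2.10-fold. The log2 fold change was 1.51 (SE 0.24, 95% confidence interval 0.95 to 2.08), the largest of the 5 on the log2(FPKM + 1) scale, and the limma adjusted p was 0.11. With libraries weighted by quality this p was 0.0204, and it ranged from 0.0204 to 0.481 over the alternatives.

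*dhs-28* encodes the 3-hydroxyacyl-CoA dehydrogenase. FPKM values of 1746, 1420 and 1909 in WT (mean 1691 ± 249, SD, n = 3) stood against 3415, 3001 and 3180 in *alh-4(-)* (mean 3199 ± 208, SD, n = 3). It was the most abundant of the 5 genes in each library and had the smallest log2 fold change, 0.93 (SE 0.19, interval 0.49 to 1.37, limma adjusted p = 0.269). The interval includes a doubling. The lowest mutant value was 1.57 times the highest WT value.

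*daf-22* encodes the thiolase that closes each round. It measured 738, 572.5 and 708 FPKM in WT (mean 673 ± 88.3, SD, n = 3) and 2181, 1541 and 1562 in *alh-4(-)* (mean 1761 ± 363, SD, n = 3). Here the mutant libraries spread more widely, because replicate 1 was high, with a coefficient of variation of 20.6% against 13.1% in WT. The lowest mutant library exceeded the highest WT library 2.09-fold. The log2 fold change was 1.38 (SE 0.22, interval 0.87 to 1.89, limma adjusted p = 0.11), and it was 1.28 without replicate 1 of both genotypes. Weighting libraries by quality gave an adjusted p of 0.0221 in the limma fit, the lowest of a range that reached 0.412.

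*ech-3* belongs to the enoyl-CoA hydratase genes by name. It measured 35.3, 57.4 and 58.8 FPKM in WT (mean 50.5 ± 13.2, SD, n = 3) and 65.5, 133 and 132 in *alh-4(-)* (mean 110 ± 38.7, SD, n = 3). Replicate 1 was the low library in both genotypes. The lowest mutant value was 1.11 times the highest WT value. The log2 fold change was 1.08 (SE 0.36, interval 0.24 to 1.92, limma adjusted p = 0.77). Without replicate 1 of both genotypes it was 1.18 with an SE of 0.21 (limma adjusted p = 0.247), so the estimate moved little and its error became smaller.

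*ech-8* was the least abundant of the 5 genes. Its values were 3.22, 3.49 and 4.73 FPKM in WT (mean 3.81 ± 0.808, SD, n = 3) and 7.39, 10.6 and 15.3 in *alh-4(-)* (mean 11.1 ± 3.99, SD, n = 3). The mutant libraries differed from each other by more than the gap between the genotypes, and the lowest of them was 1.56 times the highest WT library. The log2 fold change was 1.29 (SE 0.35, interval 0.46 to 2.12, limma adjusted p = 0.557). At this low level the added pseudocount of 1 lowers the estimate: the log2 ratio of mean FPKM was 1.54, which is a ratio of 2.91.

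None of the 5 genes had an adjusted p under 0.05 in the limma fit, a threshold that 0.111% of tested genes passed with a higher level in *alh-4(-)* and 0.142% passed in either direction. All 5 had an unadjusted p under 0.05, against 4.97% of tested genes. The thresholds of the study are a fold change over 2 with an unadjusted p under 0.05, which it took from a negative binomial test. Applied here to the limma fit, they were passed by *maoc-1*, *daf-22*, *ech-3* and *ech-8*, and *dhs-28* missed the fold change. That is 4 of 5 genes, beside 1.54% of tested genes that passed in this direction, 1.37% in the other and 2.92% in either. Groups without overlap and with the mutant higher were seen in 5 of 5 genes and in 5.97% of tested genes, with 3.25% for the mutant lower and 9.21% for either direction. The median log2 fold change was 1.29 over the 5 genes and 0.07 over all tested genes. The 5 genes were chosen with earlier results of these data known, so their counts and median are no independent evidence of a direction. An exact two-sided permutation test gave p = 0.1 for each gene, the smallest that 3 libraries against 3 allow.

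The call of *ech-3* was the least stable of the 4. It missed the thresholds of the study without WT replicate 1 (log2 fold change 0.84), without *alh-4(-)* replicate 2, without *alh-4(-)* replicate 3 and under upper quartile scaling, where the median log2 fold change of all tested genes was -0.15 in place of 0.07. *maoc-1* and *daf-22* passed them in all 15 refits, and *ech-8* in all 14 in which it was tested. *dhs-28* passed in 1 of 15, without WT replicate 3, at a log2 fold change of 1.02.

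The proportions of these transcripts were compared as well as their amounts. The summed FPKM of the 5 genes was 3376, 2541 and 3390 in WT and 7621, 6474 and 6869 in *alh-4(-)*. *dhs-28* made up 51.7%, 55.9% and 56.3% of this sum in WT and 44.8%, 46.4% and 46.3% in the mutant, so its share was lower in every *alh-4(-)* library. The share of *maoc-1* was 25.3%, 19.2% and 20.95% in WT and 25.6%, 27.6% and 28.8% in *alh-4(-)*. That of *daf-22* was 21.9%, 22.5% and 20.9% in WT and 28.6%, 23.8% and 22.7% in *alh-4(-)*. Both shares had higher averages in the mutant. The genotypes did not overlap, but narrowly, at 25.3% against 25.6% for *maoc-1* and 22.5% against 22.7% for *daf-22*. Shares of the same sum are tied. A lower *dhs-28* share goes with a higher share of the others together, so these are not separate results. The shares were not tested. *ech-3* stayed between 0.860% and 2.26% of the sum and *ech-8* between 0.095% and 0.223%.

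Within each library, the order of the levels was the same at 3 of its 5 places. *dhs-28* was highest, *ech-3* next to last and *ech-8* lowest in all 6 libraries. *maoc-1* was the second in WT replicates 1 and 3 and *alh-4(-)* replicates 2 and 3, and *daf-22* was the second in the other two. The ranges of *maoc-1* and *daf-22* overlapped in both genotypes, so these neighbours did not differ beyond their spread, whereas all other neighbours had separate ranges.

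Ratios within a library do not depend on how that library was scaled. The dehydrogenase to hydratase ratio, *dhs-28* to *maoc-1*, was 2.05, 2.91 and 2.69 in WT and 1.75, 1.68 and 1.61 in *alh-4(-)*. The dehydrogenase to thiolase ratio, *dhs-28* to *daf-22*, was 2.37, 2.48 and 2.696 in WT and 1.57, 1.95 and 2.04 in *alh-4(-)*. Both were lower in every mutant library. On the log2 scale the differences were -0.59 (SE 0.16) for *dhs-28* to *maoc-1* and -0.45 (SE 0.13) for *dhs-28* to *daf-22*. The exact permutation p was 0.1 for each, the smallest that 3 libraries against 3 allow. After Benjamini-Hochberg adjustment over the 10 pairs that 5 genes form, it was 0.5 for both. With this floor, no pair could reach a p under 0.05 before or after adjustment, whatever its values. The hydratase to thiolase ratio, *maoc-1* to *daf-22*, was 1.16, 0.853 and 1.003 in WT and 0.895, 1.16 and 1.27 in *alh-4(-)*. It lay near 1 in both genotypes, with geometric means of 0.996 and 1.096, and differed by 0.14 (SE 0.20, exact permutation p = 0.5, 0.833 adjusted over the 10 pairs). In both genotypes these values straddled 1. Without replicate 1 of both genotypes the difference was 0.39.

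**Figure D2:**
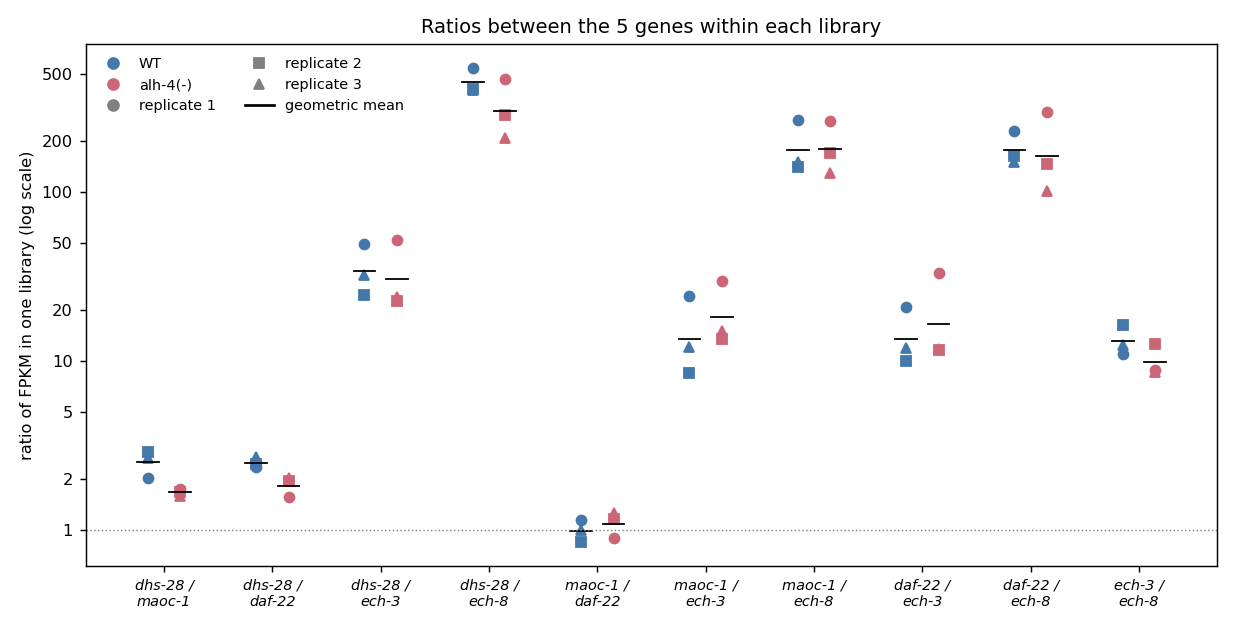
Ratios of FPKM between pairs of the 5 genes (vertical axis, log scale) within each of the 3 WT and 3 *alh-4(-)* libraries, with lines at the geometric means. *dhs-28* to *maoc-1* (1.61 to 1.75 in *alh-4(-)*, 2.05 to 2.91 in WT) and *dhs-28* to *daf-22* are the pairs without overlap, and replicate 1 is highest for the ratios of *dhs-28*, *maoc-1* or *daf-22* to *ech-3* or *ech-8*.

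The remaining 7 pairs, which include *ech-3* or *ech-8*, overlapped between the genotypes, as did *maoc-1* to *daf-22*, so that 8 of 10 pairs overlapped. *dhs-28* exceeded *ech-3* by 49.5-, 24.8- and 32.5-fold in WT and by 52.1-, 22.6- and 24.1-fold in *alh-4(-)*. Replicate 1 stood out in each genotype. *maoc-1* to *ech-3* was 24.2, 8.51 and 12.1 in WT and 29.8, 13.4 and 14.99 in *alh-4(-)*, the widest range of the 10 ratios at 3.50-fold. *daf-22* to *ech-3* was 20.9, 9.98 and 12.04 in WT and 33.3, 11.6 and 11.8 in *alh-4(-)*. Again the replicate 1 libraries were the high ones. All 6 ratios of *dhs-28*, *maoc-1* or *daf-22* to *ech-3* or *ech-8* were highest in replicate 1 of both genotypes. Replicate 1 was also the library with the fewest genes above 0 in each genotype, and whether this bears on these ratios was not tested.

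*ech-8* was lower than *dhs-28* by a geometric mean of 447-fold in WT and 301-fold in *alh-4(-)*. The difference on the log2 scale was -0.57 (SE 0.36, exact permutation p = 0.3, 0.75 adjusted). *maoc-1* to *ech-8* had geometric means of 177 and 179.5, and *daf-22* to *ech-8* of 178 and 164. The log2 differences were 0.02 (SE 0.42) and -0.12 (SE 0.49), each smaller than its SE. No change of proportion was detected, and the smallest change that could have been detected was not worked out. *ech-3* to *ech-8* was 10.98, 16.5 and 12.4 in WT and 8.87, 12.6 and 8.62 in *alh-4(-)* (log2 difference -0.41, SE 0.25, exact permutation p = 0.3, 0.75 adjusted). The 10 ratios share genes and are not independent.

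By their centred profiles over the 6 libraries, *maoc-1* and *daf-22* were the closest pair of the 5 genes, with a root-mean-square difference of 0.21 on the log2 scale. *dhs-28* followed *daf-22* at 0.26, and *ech-3* followed *ech-8* at 0.27. The most distant pairs were *daf-22* and *ech-3* at 0.61 and *maoc-1* and *ech-3* at 0.60. Both ECH genes were thus nearer to each other than *ech-3* was to the hydratase *maoc-1* or the thiolase *daf-22*. Each of the 5 had nearer profiles among the other genes of the table, as given below.

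Reads of other genes can fall within 4 of the 5 gene models. In the WBcel235 annotation, a different build from that of the table, *maoc-1* and *daf-22* lie on chromosome II, *dhs-28* on X, *ech-3* on V and *ech-8* on IV. Genes on the opposite strand overlap 8.61% of the span of *maoc-1* (E04F6.6), 4.63% of *dhs-28* (*gei-15*), 11.2% of *ech-3* (F43H9.3) and 2.16% of *ech-8* (*linc-119*), and no gene overlaps *daf-22*. The library kit does not mark strand, so reads in these overlaps cannot be told apart. E04F6.6 had 107, 24.8 and 11.3 FPKM in WT and 20.9, 21.8 and 45.6 in *alh-4(-)*, far below *maoc-1*. F43H9.3 exceeded *ech-3* in all 6 libraries, with 153, 141 and 226 FPKM in WT and 128, 181 and 187 in *alh-4(-)*, and its genotypes overlapped. *gei-15* stayed between 5.88 and 7.62 FPKM. *linc-119* was at 0.613, 0.436 and 0.643 FPKM in WT and 0.654, 3.09 and 4.83 in *alh-4(-)*, so it was higher in every *alh-4(-)* library, like *ech-8*, at a lower level.

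*ech-9* is the coding gene next to *ech-8*, on the same strand. It was listed at 0 in 4 of the 6 libraries, with 0.399 FPKM in WT replicate 3 and 0.953 in *alh-4(-)* replicate 3, and was below the level needed for a test. In both genotypes, *ech-8* was therefore the member of this neighbouring pair with a measurable transcript in each library.

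The step before these 5 genes was measured as well. *acox-1*, an acyl-CoA oxidase, had 81.8, 90.5 and 89.2 FPKM in WT and 191, 235.4 and 264 in *alh-4(-)* (log2 fold change 1.38, SE 0.20, limma adjusted p = 0.0849). The related gene F58F9.7 had 116, 141 and 176 FPKM in WT and 590, 837 and 965 in *alh-4(-)* (log2 fold change 2.45, SE 0.26, limma adjusted p = 0.0261). That adjusted p was 0.102 to 0.181 in the limma fit when any library other than *alh-4(-)* replicate 1 was left out. F59F4.1 had a log2 fold change of 0.97 (SE 0.21, limma adjusted p = 0.329). F08A8.2 lay in the other direction, with 290, 226 and 400.2 FPKM in WT and 67.8, 174 and 199 in *alh-4(-)* (-1.15, SE 0.44, limma adjusted p = 0.91). Of the 7 tested oxidase genes, 2 passed the thresholds of the study with a higher level, against 1.54% of all tested genes. With a lower level 1 passed, against 1.37%. The mutant was higher without overlap in 4 of the 7, against 5.97%, and lower without overlap in 1, against 3.25%. The median log2 fold change of the 7 was 0.49, against 1.29 for the 5 genes of the later steps. In level, *maoc-1*, *dhs-28* and *daf-22* each exceeded *acox-1* and F58F9.7 in every library.

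**Figure D3:**
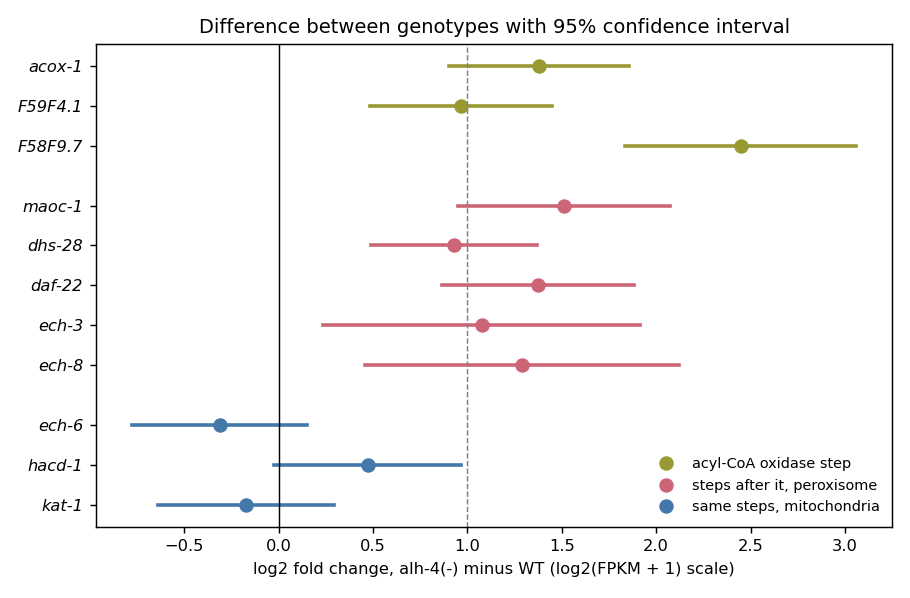
Log2 fold changes (horizontal axis, *alh-4(-)* minus WT on the log2(FPKM + 1) scale) with 95% confidence intervals for 3 acyl-CoA oxidase genes, the 5 genes of the later steps and 3 mitochondrial genes of the same reactions. The dashed line marks a doubling, and the 5 genes lie between 0.93 (*dhs-28*) and 1.51 (*maoc-1*), while *kat-1* (-0.17) and *ech-6* (-0.31) lie below 0.

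The mitochondrial genes of the same reactions lay closer to 0 on the log2 scale. Of 12 tested mitochondrial hydratase, dehydrogenase and thiolase genes, none passed the thresholds of the study, against 2.92% of all tested genes in either direction. None had an adjusted p under 0.05 in the limma fit, against 0.142%. An unadjusted p under 0.05 was seen for 1 of the 12, against 4.97%. The counts past these thresholds are near those shares and do not set the 12 genes apart. The mutant was higher without overlap in 2 of the 12 (*hacd-1* and B0303.3), against 5.97% of all tested genes. It was lower without overlap in 1 (*ech-1*), against 3.25%. The median log2 fold change of the 12 genes was -0.01, between 0.47 for *hacd-1*, a 3-hydroxyacyl-CoA dehydrogenase gene, and -0.71 for *ech-1*. *kat-1*, the thiolase counterpart of *daf-22*, had 1073, 881 and 932 FPKM in WT and 1008, 725 and 845.5 in *alh-4(-)* (log2 fold change -0.17, SE 0.20). *ech-6*, a mitochondrial enoyl-CoA hydratase gene, had 3206, 2693 and 2567 FPKM in WT and 2654, 1953 and 2231 in *alh-4(-)* (-0.31, SE 0.20). *hacd-1* had 442, 357 and 514 FPKM in WT and 597, 534 and 680.5 in *alh-4(-)* (0.47, SE 0.21, limma adjusted p = 1).

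Set against *kat-1*, *ech-6* and *hacd-1* within each library, *daf-22*, *maoc-1* and *dhs-28*, respectively, were relatively higher in every *alh-4(-)* library. *daf-22* to *kat-1* was 0.688, 0.650 and 0.759 in WT and 2.16, 2.12 and 1.85 in *alh-4(-)*, so the peroxisomal thiolase was the less abundant in every WT library and the more abundant in every mutant library. *maoc-1* to *ech-6* was 0.266, 0.181 and 0.277 in WT and 0.736, 0.916 and 0.888 in *alh-4(-)*. There the mitochondrial transcript remained the more abundant in all 6 libraries. *dhs-28* to *hacd-1* was 3.95, 3.98 and 3.71 in WT and 5.72, 5.62 and 4.67 in *alh-4(-)*. On the log2 scale the ratios differed by 1.55 (SE 0.10), 1.83 (SE 0.22) and 0.46 (SE 0.10) for *daf-22*, *maoc-1* and *dhs-28*, respectively. These 3 pairings were chosen after the values had been seen and carry no test. The other mitochondrial genes of these reactions were not paired, so the ratios describe these genes and not the whole steps.

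**Figure D4:**
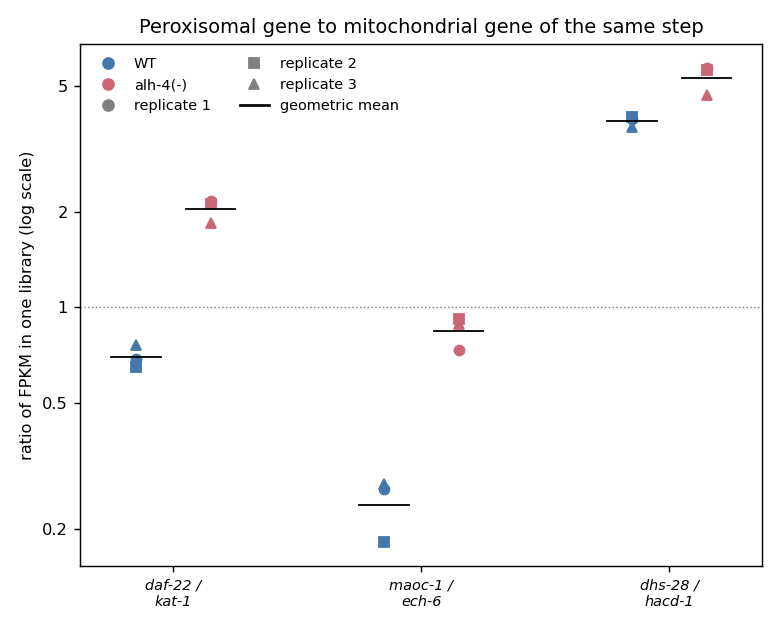
FPKM ratios of a peroxisomal gene to a mitochondrial gene of the same reaction (vertical axis, log scale) in each of the 3 WT and 3 *alh-4(-)* libraries, with lines at the geometric means. *daf-22* to *kat-1* crosses the dotted line of equal levels, from 0.650 to 0.759 in WT to between 1.85 and 2.16 in *alh-4(-)*.

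Other gene lists place the 5 genes among their neighbours in function. The study assigns 11 other tested genes to peroxisomal oxidation, a list drawn up on these samples and no independent evidence of its direction. Of these, 1 passed the thresholds of the study, namely *acox-1*, against 1.54% of all tested genes in this direction. In 6 of the 11, every *alh-4(-)* library was above every WT library, against 5.97% of all tested genes. The median log2 fold change was 0.64 (lowest T02G5.7, -0.19). Of 32 mitochondrial oxidation genes none passed, and the median was 0.01, from 0.93 (*acs-17*) to -0.92 (*acdh-2*). The mutant was higher without overlap in 5 of the 32 and lower without overlap in 2. Of the 6 other tested *ech* genes none passed, and the median was -0.07, from 0.38 (*ech-7*) to -0.71 (*ech-1*). None of the 6 was higher without overlap, and 1 was lower, against 3.25% of all tested genes. Over all tested genes 2.92% passed in either direction, so none is an unremarkable count for lists of these sizes. Of 11 *prx* genes, which act in peroxisome assembly and protein import, 1 passed, and the median was 0.50, from 1.03 (*prx-1*) to 0.05 (*prx-2*). The mutant was higher without overlap in 3 of these 11. Higher values in every *alh-4(-)* library were thus not particular to the 5 genes. The median of 1.29 over *maoc-1*, *dhs-28*, *daf-22*, *ech-3* and *ech-8* was above that of each of these lists, and the difference between lists was not tested. These 5 genes were themselves chosen with earlier results of these data known, so their place above the lists is no independent evidence.

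Among 10027 other genes whose mean FPKM reached 10, a few had profiles over the 6 libraries close to those of the 5 genes. *clec-52*, a C-type lectin gene, was the nearest to both *maoc-1* (root-mean-square difference 0.17 on the log2 scale) and *daf-22* (0.13), with 399, 312 and 411 FPKM in WT and 1080, 1019 and 918 in *alh-4(-)*. *maoc-1* was next followed by F12E12.11 (0.18) and F02E8.4 (0.20), and *daf-22* by *spsb-2* (0.17) and the glycogenin gene *gyg-2* (0.20). *dhs-28* had the closest matches, namely *cpg-2* (0.05), *gln-6* (0.05) and H02I12.5 (0.07). *cpg-2* encodes a chondroitin proteoglycan and *gln-6* a glutamine synthetase. The nearest to *ech-3* were *ugt-2* (0.11), *meg-2* (0.11) and F53F8.8 (0.13). For *ech-8* they were F14D7.2 (0.19), *acox-1* (0.19) and *dnj-26* (0.20), so that the profile of an acyl-CoA oxidase gene was among the 3 nearest to *ech-8*. Likeness here means the pattern over 6 libraries, which includes the difference between the genotypes. Each of the 5 genes was nearer to these matches than to any other of the 5. For *dhs-28* the difference was 0.05 from *cpg-2* against 0.26 from *daf-22*. For *ech-3* it was 0.11 from *ugt-2* against 0.27 from *ech-8*. The matches were the nearest of 10027 genes, so likeness within the 5 does not stand out.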

How the data were processed

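The authors deposited FPKM values of 28641 genes for 6 Smart-seq2 libraries, which keep no strand, aligned to the ce10 assembly. The submitters' processing notes name Trimmomatic 0.36, HISAT2 2.1.0, SAMtools 1.3 and StringTie 1.3.3. FPKM corrects for gene length and mapped fragments. No single-read steps were seen among low values (at most 2.18% of low genes fell in a bin of 0.02 on the log2 scale), so depth is unknown and no counting interval is given.

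Genes whose mean FPKM reached 1 were tested as log2(FPKM + 1) with limma 3.58.1 in R 4.3.3 (eBayes with a trend), with Benjamini-Hochberg adjustment over all 16225. The study's thresholds, which it used with a negative binomial test, were applied to this fit, so calls need not match its own. Fold changes on this scale understate changes of low genes. Ratios were compared by exact permutation (SciPy 1.17.1). Likeness was the root-mean-square difference of centred profiles. Groups came from the sample labels. The script was tested on simulated data. The study calls the libraries biological replicates, without stating whether they were separate cultures, so p-values measure the spread between these libraries.

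The 5 genes and the lists were chosen with earlier results of these data known. Other named genes were the oxidase genes, *ech-9*, the extremes of each list, the 3 nearest profiles per gene, and, chosen after their values were seen, F08A8.2, the strand partners and the mitochondrial counterparts. Alternatives were a pseudocount of 0.1, no filter, a minimum mean FPKM of 10, quantile and upper quartile scaling, no trend, library quality weights, the replicate block, the ratio of means, each library left out, and replicate 1 of both genotypes left out. Protein and promoter sequences were not used here.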

Additional observations from a re-analysis of the deposited data

How the results depend on the processing

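*maoc-1*, *dhs-28*, *daf-22*, *ech-3* and *ech-8* were higher in *alh-4(-)* under each alternative run, and the number past the thresholds of the study ranged from 3 to 5. Weighting libraries by quality brought *maoc-1* (log2 fold change 1.54, adjusted p = 0.0204, limma) and *daf-22* (1.24, adjusted p = 0.0221) under an adjusted p of 0.05. *ech-8* had no value at a mean FPKM of at least 10, which its own mean does not reach. Fold changes over the leave-one-out fits ranged from 1.29 to 1.69 for *maoc-1*, 0.81 to 1.02 for *dhs-28*, 1.21 to 1.46 for *daf-22*, 0.84 to 1.41 for *ech-3* and 1.05 to 1.53 for *ech-8*. The log2 difference of the *maoc-1* to *daf-22* ratio ran from 0.026 to 0.39 over these fits, the highest without replicate 1 of both genotypes.

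The number of tested genes with an adjusted p under 0.05 was 23, and it became 6 without a filter, 36 with quantile normalization, 91 with quality weights and 6 to 25 when libraries were left out, with a fall of over 1.5 times for each library except *alh-4(-)* replicate 1 (25) and the lowest count without *alh-4(-)* replicate 3. The number past the thresholds of the study was 473, and it became 266 at a mean FPKM of at least 10, 894 with quality weights, 774 without replicate 1 of both genotypes and 363 to 950 when single libraries were left out, the highest without *alh-4(-)* replicate 1. The cause was not tested. F58F9.7 had an adjusted p between 0.00204 and 0.181 over the alternatives.

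The replicate number as a block gave 15 genes below this adjusted p, 12 of them shared with the 23, and adjusted p-values of 0.13, 0.253, 0.117, 0.229 and 0.353 for *maoc-1*, *dhs-28*, *daf-22*, *ech-3* and *ech-8*, so it changed no call of these 5. Same-numbered libraries correlated at 0.314, 0.278 and 0.005 in their deviations from the genotype means, and not every library correlated best with its own number, so the numbers were not taken as pairs.

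Of the named genes that passed neither threshold, 6 changed sign in some fits. With a library or replicate 1 of both genotypes left out, fold changes ran from -1.235 to 0.058 for *acdh-2*, -0.22 to 0.14 for *glh-1*, -0.055 to 0.33 for *pept-1*, -0.19 to 0.37 for *prx-2* and -0.79 to 1.03 for *tnt-4*. With upper quartile scaling they were -0.077 for *pept-1*, -0.021 for *spe-11*, -0.069 for *tnt-4* and -0.20 for *prx-2*, and with quantile normalization -0.040 for *prx-2*.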
